A study of Homo sapiens with 2 samples.

Results

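The genes described here encode 8 ubiquitin ligases: HUWE1, UBR4, HERC1, HERC2, TRIP12, NEDD4, ITCH and BIRC6. They were chosen by name from a table of 25556 genes in RNA immunoprecipitation (IP) sequencing of Huh-7 cells, and all 8 were listed. Such an assay sequences the RNA recovered with an antibody, the IP, and a sample of the starting RNA, the input. Huh-7 is an established human hepatocellular carcinoma line, both libraries are labelled WT, and the protocol gives no treatment of the cells. The treatment label of the IP reads SPSF7 Q16629 and that of the input reads none. The 2 groups were the IP, with 1 library, and the input, with 1 library. The series design gives SRSF7, a splicing and mRNA export factor, as the target of the antibody, and the treatment label is close to that name. The sample protocol instead gives YTHDF2, a reader of m6A, with purified poly(A) RNA as the material for the precipitation, so that the precipitated protein cannot be told from the labels.

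Ubiquitin ligases (E3 enzymes) pick the proteins that are tagged with ubiquitin, often for destruction by the proteasome. Ubiquitin is activated by an E1 enzyme, passed to an E2 enzyme and then brought to the substrate by the E3. HECT ligases first take the ubiquitin onto a cysteine of their own HECT domain, whereas proteins with a UBR box bind the destabilising first residues of substrates in the N-degron pathway. HUWE1, HERC1, HERC2, TRIP12, NEDD4 and ITCH carry a HECT domain, and UBR4 carries a UBR box. BIRC6, an inhibitor of apoptosis, has neither: it combines a BIR domain with an E2-like domain, so that the set is wider than its working name. NEDD4 and ITCH, which hold C2 and WW domains before the HECT domain, are medium-sized proteins, and the others are very large.

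The genes lay on 5 chromosomes. In the deposited coordinates, HUWE1 spans 53532096 to 53686728 on chromosome X, UBR4 spans 19074510 to 19210266 on chromosome 1, and ITCH spans 34363241 to 34540748 on chromosome 20. TRIP12 (229763837 to 229923239) and BIRC6 (32357028 to 32618899) are on chromosome 2. HERC2 (28111040 to 28322179), NEDD4 (55826922 to 55993746) and HERC1 (63608618 to 63833948) are on chromosome 15. No source used here gives the genome build, but 231 of the 232 miRNA genes of the table that also stand in RefSeq had the same ends as in GRCh38.p14. The merged exons, the union of all annotated exons of a gene, ran from 9122 bases in NEDD4 to 24661 bases in UBR4, and 7 of the 8 genes had at least 10000 bases. UBR4 had 107 merged exons, HERC2 93, HUWE1 86, HERC1 82, BIRC6 76, TRIP12 48, NEDD4 35 and ITCH 34.

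Some of these genes also host miRNAs in their introns. HUWE1 holds 2 miRNAs of the let-7 family, ITCH holds MIR644A and BIRC6 holds MIR558, and no hairpin overlapped a merged exon of its host. Their mature forms are shown, from RefSeq on GRCh38.p14, because they are separate products of the same transcripts whose mRNA is described below. Capitals mark the seed, bases 2 to 8 from the 5′ end, with which a miRNA pairs to its targets.
hsa-miR-98-5p (chrX:53556299-53556320, minus strand, HUWE1): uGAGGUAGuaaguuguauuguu
hsa-let-7f-5p (chrX:53557246-53557267, minus strand, HUWE1): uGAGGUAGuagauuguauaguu
hsa-miR-644a (chr20:34466385-34466403, plus strand, ITCH): aGUGUGGCuuucuuagagc
hsa-miR-558 (chr2:32532213-32532231, plus strand, BIRC6): uGAGCUGCuguaccaaaau
The pair in HUWE1 shares the seed GAGGUAG and is identical at 19 of 22 bases, with the first difference at position 11. Of these loci the table listed MIR98 alone, with 6 reads in the IP and 0 in the input over its 119-base hairpin, too few to compare. Reads of the hairpin and of the unspliced host transcript cannot be told apart.

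The deposited levels are RPKM, reads per kilobase of merged exons scaled to the assigned reads of the library. The IP held 5897293 and the input 2782045 assigned reads, as recovered from the RPKM values, and the 8 genes took 0.231% of the IP reads and 0.107% of the input reads. With 1 library in each group, no difference has a replicate check, no test was made, and the members were picked with this very contrast in view, so that their ratios are a description. Intervals are 95% counting intervals that take reads as independent. Among genes with 1 to 20 reads, 77.3% of the counts were even in the IP and 77.3% in the input, which is what counts of both mates look like, and the intervals are then too narrow. All 10 hepatocyte and hepatoma markers were present, from 49.1 to 1613 RPKM in the IP and from 26.4 to 2814 RPKM in the input. The 5 immune markers summed to 73.9 RPKM in the IP and 145 RPKM in the input, of which LYZ gave 70.2 RPKM in the IP and 133 RPKM in the input. The 4 erythroid markers summed to 694 RPKM in the IP and 1052 RPKM in the input. Of the fibroblast markers 3 of 4 were listed, with sums of 1.49 RPKM in the IP and 1.92 in the input, and of the endothelial ones 2 of 3, with 2.49 in the IP and 3.76 in the input. CDH5 was at 0 in the input. Their part in the values below was not tested.

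The giant HECT ligases were all higher in the IP. HUWE1, which marks MCL1 and p53 for degradation, was at 72.8 RPKM in the IP (7462 reads) and 24.4 RPKM in the input (1180 reads). It was 2.98 times its input level (counting interval 2.81 to 3.17) and by far the most abundant member, with 54.9% of the reads of the 8 genes in the IP and 39.7% in the input. HERC2, a HECT ligase of the DNA damage response that also carries RCC1-like domains, was at 7.26 RPKM in the IP (864 reads) and 2.55 RPKM in the input (143 reads), 2.85 times (2.39 to 3.43). Its relative HERC1, which binds clathrin and small GTPases, was at 4.74 RPKM in the IP (477 reads) and 2.06 RPKM in the input (98 reads), 2.30 times (1.84 to 2.88). Among these giant HECT genes, the interval of HERC1 alone reached below 2.

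UBR4, a UBR box protein of the N-degron pathway, had a ratio between those of HUWE1 and HERC2. It was at 11.2 RPKM in the IP (1622 reads) and 3.86 RPKM in the input (265 reads), 2.89 times its input level (2.53 to 3.30). BIRC6, which ubiquitinates caspases and other regulators of apoptosis, stood lower, at 3.45 RPKM in the IP (363 reads) and 2.27 RPKM in the input (113 reads), 1.52 times (1.22 to 1.89). BIRC6 has merged exons of 17858 bases, about as many as HUWE1 with 17379 and HERC1 with 17059.

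The remaining HECT genes had the lowest ratios of the set. TRIP12, the ligase of the ubiquitin fusion degradation pathway, was at 22.3 RPKM in the IP (1675 reads) and 16.7 RPKM in the input (591 reads), 1.34 times (1.22 to 1.47). ITCH, which controls JUN family proteins and T cell responses, was at 16.3 RPKM in the IP (1020 reads) and 17.3 RPKM in the input (511 reads), 0.942 times (0.846 to 1.049). NEDD4, the founding member of its family and a ligase of membrane proteins, was at 2.23 RPKM in the IP (120 reads) and 2.84 RPKM in the input (72 reads), 0.786 times (0.582 to 1.07). As deposited, the intervals of ITCH and NEDD4 included 1. That of TRIP12 lay above 1 and overlapped that of BIRC6 but not that of ITCH.

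**Figure D1:**
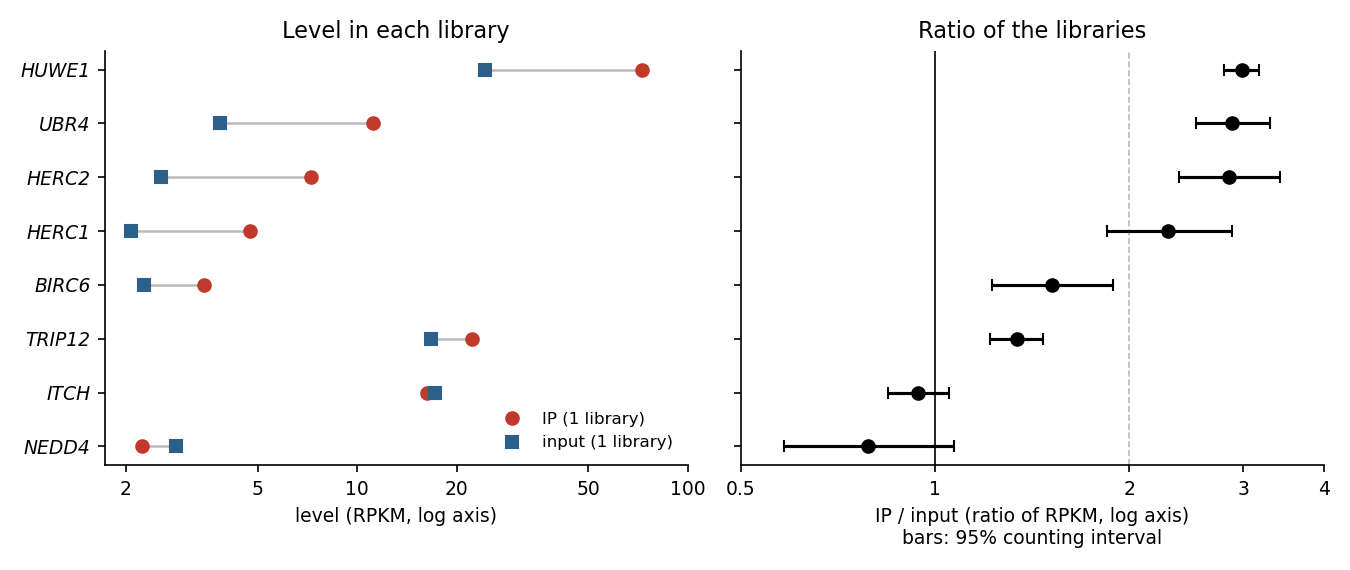
Left, level of each gene in the IP (circles) and in the input (squares) in RPKM on a log axis, 1 library each. Right, ratio of IP to input on a log axis with its 95% counting interval, a solid line at 1 and a dashed line at 2: HUWE1, UBR4 and HERC2 lie between 2.85 and 2.98, and ITCH and NEDD4 just below 1.

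In the order of the ratios, from HUWE1 over UBR4, HERC2, HERC1, BIRC6, TRIP12 and ITCH to NEDD4, only TRIP12 and ITCH were neighbours whose counting intervals did not overlap, also with intervals computed on 0.5 of the reads. The order of the levels was another one. In the IP, HUWE1 was followed by TRIP12, ITCH, UBR4, HERC2, HERC1, BIRC6 and NEDD4. The highest level was 32.6 times the lowest in the IP and 11.8 times in the input, where HERC1 at 2.06 RPKM was lowest. Per kilobase of merged exons, the input held 67.9 reads of HUWE1, 48.0 of ITCH, 46.4 of TRIP12, 10.7 of UBR4, 7.89 of NEDD4, 7.08 of HERC2, 6.33 of BIRC6 and 5.74 of HERC1.

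On the scale of log2((IP + 1)/(input + 1)) in RPKM, which draws low genes towards 0, the 8 genes had a median of 0.67 and ranged from -0.25 for NEDD4 to 1.54 for HUWE1. Over all 14057 genes that averaged 1 RPKM or more across the libraries, the median was 0.14. HUWE1 (1.54), UBR4 (1.32) and HERC2 (1.22) passed 2-fold towards the IP, 3 of 8 genes against 11.3% of all genes. HERC1 fell short on this scale with 0.91, although its ratio without the pseudocount was over 2. None of the 8 was at least 2-fold lower, against 8.25% of all genes. HUWE1 exceeded 95.8% of all genes, UBR4 94.1%, HERC2 92.9%, HERC1 86.1%, BIRC6 66.6%, TRIP12 64.2%, ITCH 37.1% and NEDD4 29.5%. Since the genes were picked with these values known, nothing is read from the counts.

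How far the genes stood from their input level depended on how the libraries were scaled, and the direction of ITCH and NEDD4 turned with it. Protein-coding genes held 90.1% of the IP reads and 68.7% of the input reads. The RPKM sum was 353024 in the IP and 844211 in the input. Of the input sum, the short RNA genes RN7SL2 (300 bases) and RN7SL1 (299 bases) alone gave 198885 and 168932 RPKM. With scaling to reads in protein-coding genes, all ratios were multiplied by 0.763, which left HUWE1 at 2.28 times, UBR4 at 2.20 times and HERC2 at 2.17 times. HERC1 was then at 1.75 times. With the pseudocount, 2 of the 8 genes were past 2-fold with this scaling, against 3 as deposited, and 4 were with a pseudocount of 0.1 or of 0.5. TRIP12 was at 1.02 times (0.928 to 1.12) and BIRC6 at 1.16 times (0.934 to 1.44), so that both intervals included 1. With the same protein-coding scaling, ITCH was at 0.718 times (0.645 to 0.8004) and NEDD4 at 0.5998 times (0.444 to 0.815). After centring on the median of all genes, ITCH was at 0.834 times (0.7495 to 0.9297) and NEDD4 at 0.697 times (0.516 to 0.947). In both settings the intervals of ITCH and NEDD4 lay wholly below 1. With scaling to the same RPKM sum, all ratios were multiplied by 2.39, and ITCH (2.25 times) and NEDD4 (1.88 times) were above 1. The median log2 ratio of the 8 genes was 0.40 with scaling to protein-coding reads and 1.85 with the equal RPKM sum, against 0.67 as deposited, and it was 0.44 without HUWE1, an alternative added after seeing the data. Of all 2-fold calls, 57.9% were higher as deposited, 44.6% after centring on the median, 29.4% with scaling to protein-coding reads and 95.04% when both libraries were set to an equal sum of RPKM.

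Long genes as a whole were higher in the IP than short ones, and the 8 genes are long. The median log2 ratio was -0.05 over the 4309 genes with merged exons below 2000 bases, 0.10 from 2000 to 5000 bases and 0.22 from 5000 to 10000 bases. It was 0.37 from 10000 to 15000 bases and 0.43 at 15000 bases or more. Among the 1195 genes with at least 10000 bases, 14.1% were at least 2-fold higher and 0.418% at least 2-fold lower, with a median of 0.38. Within this long class HUWE1 exceeded 97.2% of the genes, UBR4 94.7%, HERC2 91.5% and HERC1 82.3%. TRIP12 at 51.2% and BIRC6 at 53.6% were in its middle. ITCH exceeded 19.3% of the long genes and NEDD4, itself just under the length limit, 11.9%. The part of length in the ratios was not tested.

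**Figure D2:**
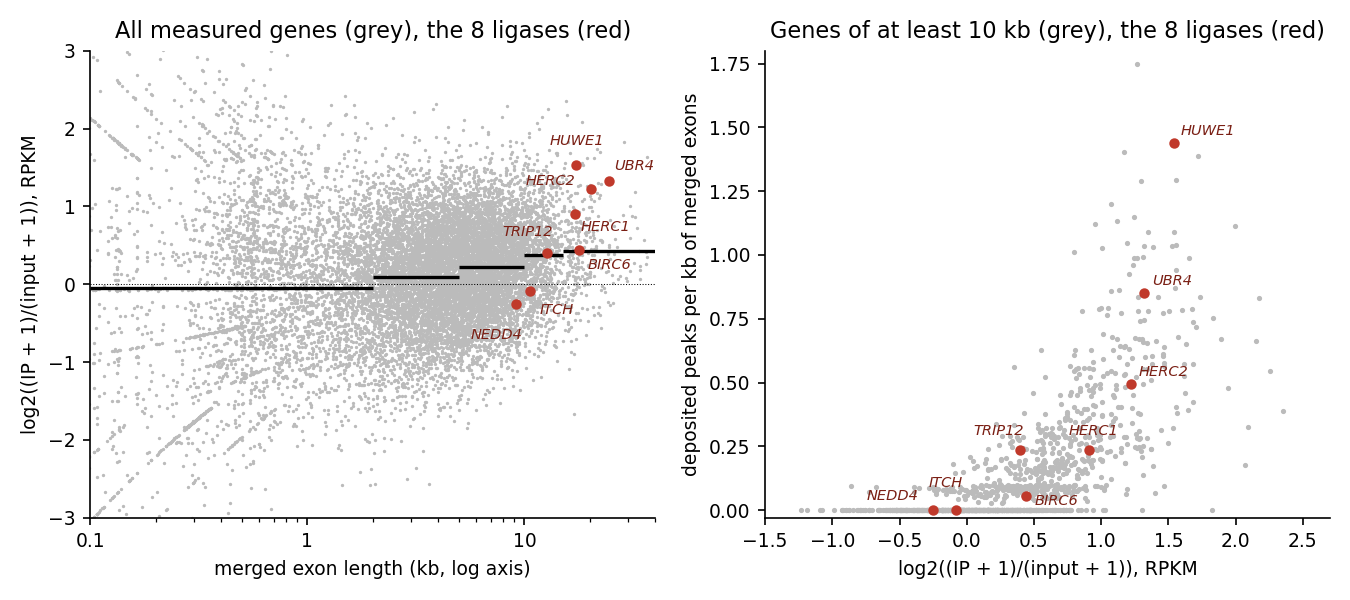
Left, log2((IP + 1)/(input + 1)) in RPKM against the length of the merged exons in kb on a log axis for the 14057 measured genes (grey) and the 8 ligases (red), with bars at the median of 5 length classes, which rise from -0.05 to 0.43. Right, deposited peaks per kb against the log2 ratio for genes of at least 10 kb (grey) and the 8 ligases (red), with HUWE1 near the top and ITCH and NEDD4 at 0 peaks (NEDD4 has 9122 bases and is drawn for comparison). Outside the axes lie 452 genes in the left panel and 1 in the right.

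The deposited peak list, regions that the authors called as enriched in the IP over the input, placed 64 of its 7643 peaks in 6 of the 8 genes. At least 1 peak was carried by 21.5% of all measured genes and by 54.9% of those with at least 10000 bases. HUWE1 carried 25 peaks, UBR4 21, HERC2 10, HERC1 4, TRIP12 3 and BIRC6 1, while ITCH and NEDD4 carried 0. At least 10 peaks were found in HUWE1, UBR4 and HERC2, against 0.448% of all genes and 3.93% of the long ones. Peaks and ratios come from the same pair of libraries and are not independent. Per kilobase, HUWE1 had 1.44 peaks, more than 99.8% of the long genes, UBR4 had 0.852, HERC2 0.495, TRIP12 0.236, HERC1 0.234 and BIRC6 0.0560. The median long gene had 0.0706.

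Peaks covered much of HUWE1 and little of BIRC6. In HUWE1 they held 7801 bases, 44.9% of the merged exons, and touched 58 of 86 exons. In UBR4 they held 6172 bases (25.03%) and 50 of 107 exons, and in HERC2 2485 bases (12.3%) and 24 of 93 exons. HERC1 had 629 bases in peaks (3.69%), TRIP12 528 bases (4.15%) and BIRC6 101 bases (0.566%). Several peaks were neighbours: joining those at most 25 bases apart left 20 blocks in HUWE1, 18 in UBR4, 9 in HERC2 and 2 in TRIP12. Of the 64 peaks, 49 (76.6%) ran over more than 1 merged exon, against 48.6% of all deposited peaks and 53.9% of those in long genes. The widest in exonic bases lay in UBR4, with 1076 bases over 9 exons.

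Merged exons also hold bases that a single exon record lists. Bases in at least 2 exon records made up 86.5% of the merged exons of HUWE1, 52.3% of UBR4, 58.0% of HERC2 and 37.4% of HERC1. With all peaks of a gene divided by the number of such bases, UBR4 had 1.63 peaks per kilobase, HUWE1 1.66, HERC2 0.854 and HERC1 0.627, and peaks outside these bases still count in these values. In UBR4 70.4% and in HERC2 78.9% of the bases in peaks were shared in this way, a larger part than in the gene as a whole. In HERC1 the part was 28.3%.

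**Figure D3:**
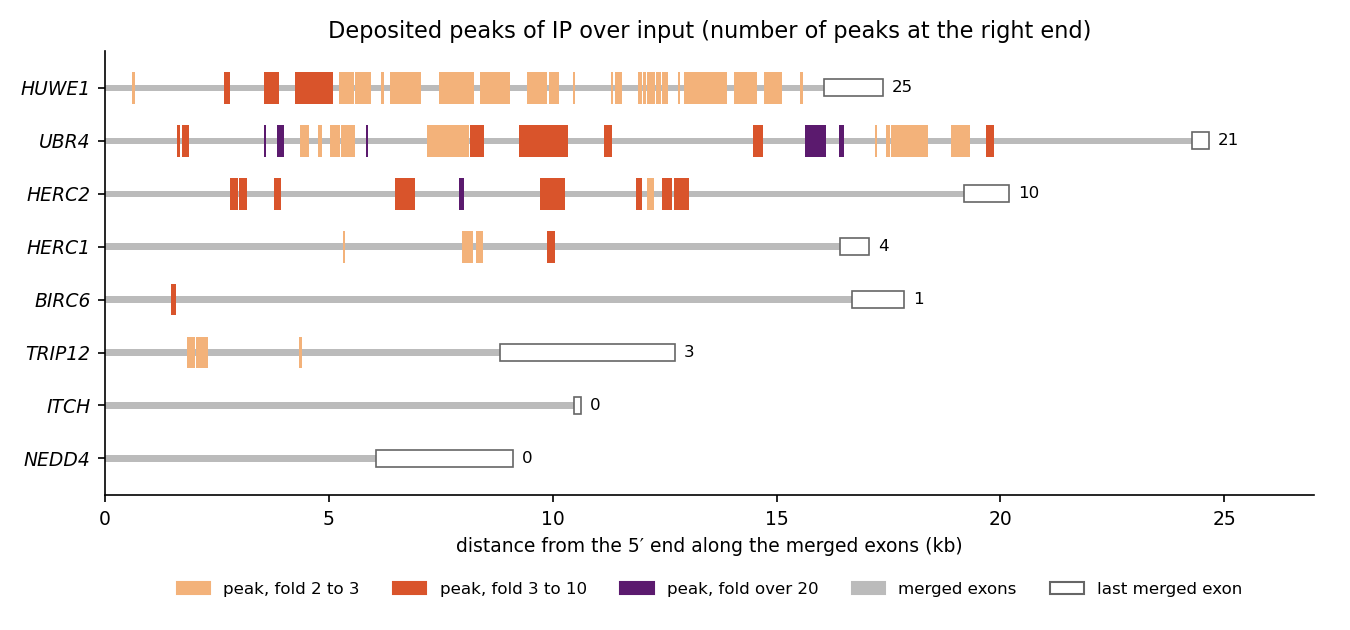
Deposited peaks along the merged exons of the 8 genes, in kb from the 5′ end, with genes ordered by the ratio of IP to input. Colour gives the deposited fold, the white box the last merged exon, and the number at the right end the peak count: peaks run through most of HUWE1 and none reaches a last merged exon.

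Along the transcripts no peak reached the 3′ end. In HUWE1 they ran from base 597 to base 15590 of 17379, with a median centre at 60.3% of the length. In UBR4 they ran from base 1598 to 19854 of 24661 (median centre 33.7%) and in HERC2 from 2790 to 13039 of 20190 (44.5%). HERC1 had its 4 peaks between bases 5320 and 10045 of 17059, TRIP12 its 3 between 1830 and 4400 of 12730, and BIRC6 its single one at 1484 to 1584 of 17858. With the merged exons divided into 10 equal bins, the last bin held 0 of the 64 centres and each earlier bin held 4 to 11. Over all deposited peaks, only 269 of 7643 centres were in the last bin, and in long genes 82 of 2579. The last 3 bins together held 12 of the 64 centres (18.75%). This was close to the 18.6% of all deposited peaks and the 18.1% of those in long genes.

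None of the 64 peaks was centred in the first or in the last merged exon. A peak wholly within bases that UBR4 or ITCH shares with another gene on its strand would have been placed in that gene. Over all deposited peaks 8.62% were centred in the first and 19.1% in the last, and in long genes 4.73% and 12.1%. These shares count peaks in genes with a single merged exon as both first and last. The genes with most peaks have short first exons, of 141 bases in HUWE1, 194 in UBR4 and 105 in HERC2. They also have short last exons, which made up 1.57% of the merged exons in UBR4, 4.93% in HERC2 and 7.57% in HUWE1. TRIP12 and NEDD4 have long ones of 3914 and 3078 bases (30.7% and 33.7%), and these carried no peak.

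The longest stretch between neighbouring peaks was 3149 bases in UBR4, 2599 in HERC1, 2537 in HERC2, 2019 in TRIP12 and 1983 in HUWE1. Peak numbers in the list were consecutive along a gene except for absent ones: 5 of 26 in UBR4, 1 of 26 in HUWE1, 1 of 11 in HERC2 and 2 of 6 in HERC1. What stood there is not known here.

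In the authors' deposited table, the folds of HUWE1 were low and even, from 2.08 to 4.29 with a median of 2.62. Of its 25 peaks, 21 had a fold below the 2.98 of the whole gene. How the folds were scaled is not given, so the folds and the gene ratio may not share a scale. The count therefore does not show that peaks were weaker than the gene. The only folds of at least 3 were those of peaks 2 to 4 from the 5′ end, 3.61, 4.29 and 3.87 in the authors' deposited table, centred between 15.6% and 26.9% of the length. The smallest p-value of HUWE1 in the authors' deposited table was 9.16e-42 (false discovery rate 2.06e-39), for a peak of 676 bases at 50.1% of the length with a fold of 2.83. Such p-values compare these 2 libraries and not conditions.

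UBR4 and HERC2 differed from HUWE1 in their folds. In the authors' deposited table, UBR4 had a median fold of 3.51 and 5 peaks with folds over 20, from 23.3 to 33.9, the others lying between 2.25 and 8.58. HERC2 had a median fold of 3.86 in the authors' deposited table and 1 peak at 25.4, the others lying between 2.83 and 6.24. Such folds came with weak p-values in the authors' deposited table, 0.00707 for the highest in UBR4 and 0.0125 for the one in HERC2. By p-value the leading peak of UBR4 was its widest, with a fold of 4.76 and p = 1.06e-06 in the authors' deposited table, and that of HERC2 had a fold of 5.85 and p = 0.00153. Over all deposited peaks 5.10% had a fold over 20, and no source used here says how folds were scaled. The fold of 25.4 with its p-value stood at 86 deposited peaks and that of 33.9 at 32. Per kilobase of merged exons, the input held only 10.7 reads of UBR4 and 7.08 of HERC2, against 67.9 of HUWE1. The part of the low input in these folds was not tested.

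The few peaks of the other genes were near the limit of the list. In the authors' deposited table, HERC1 had folds from 2.17 to 3.90, all 4 with a false discovery rate over 0.05, TRIP12 had folds from 2.41 to 2.80 with 2 of 3 over that rate, and BIRC6 had a fold of 3.51 at a rate of 0.0820. The leading peak of HERC1 by p-value had a fold of 2.496 and p = 0.0286 in the authors' deposited table, and that of TRIP12 a fold of 2.80 and p = 0.00917. The rate exceeded 0.05 for 28 of the 64 peaks (43.8%), against 39.7% of all deposited peaks. Only 10 peaks, 8 of HUWE1 and 2 of UBR4, had a rate of at most 0.01. Of the 64, 55 shared their fold and p-value exactly with another deposited peak (85.6% of all peaks did), and the pair of values of the BIRC6 peak stood at 179 peaks.

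Neighbouring and copied genes touched some of these values. HERC2 has pseudogene copies, of which 5 of 9 were listed, with 91 reads in the IP and 19 in the input in all, beside 864 in the IP and 143 in the input for HERC2 itself. HERC2P9 (38 IP and 4 input reads) and HERC2P3 (24 IP and 4 input reads) led them, and none of HERC2P2, HERC2P3, HERC2P7, HERC2P9 and HERC2P10 reached a mean of 1 RPKM. How reads that fit both gene and copy were assigned is not given, so the values of HERC2 are uncertain to that extent. ITCH shares 412 exonic bases (3.87%) on its strand with DYNLRB1, a dynein light chain gene at 44.7 RPKM in the IP and 41.4 in the input, and UBR4 shares 387 bases (1.57%) with AL137127.1, which had 7 IP and 2 input reads. On the opposite strand, HERC1 shares 457 bases with AC073167.1, which was at 30.7 RPKM in the IP (105 reads) and 11.2 in the input (18 reads), 2.75 times (1.66 to 4.82), and 2 of the 4 HERC1 peaks lay over its exons. The kit was stranded, but whether strand was used in counting is not stated, so reads of HERC1 and of this gene cannot be told apart there. BIRC6 shares 49 bases with BIRC6-AS1 (5 IP and 3 input reads).

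Other HECT ligases were spread around the middle of all genes. Of 23 on the list 15 had a mean of at least 1 RPKM, with a median log2 ratio of 0.18. This was -0.087 with scaling to protein-coding reads. WWP2, a NEDD4 relative, was the 1 gene at least 2-fold higher, at 6.60 RPKM in the IP (351 reads) and 1.91 in the input (48 reads), 3.45 times (2.55 to 4.77), with 3 peaks. HECTD4 followed at 2.81 times (2.09 to 3.85), with a log2 ratio of 0.88. It had 310 IP and 52 input reads and shares exon bases with another gene on its strand. G2E3, a ligase with a diverged HECT domain, was lowest at 0.549 times (0.457 to 0.660), and WWP1, the closest relative of WWP2, was at 0.923 times (0.715 to 1.198). Peaks were found in 8 of the 23 genes, 22 in all.

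The other measured UBR box genes had lower ratios than UBR4. Of 6 on the list 5 were measured, 0 were 2-fold higher or lower, and the median log2 ratio was 0.26, or -0.063 with scaling to protein-coding reads. UBR3 was highest at 1.82 times (1.46 to 2.29). UBR7 at 1.01 times (0.730 to 1.41) and FBXO11 at 1.12 times (0.907 to 1.40) were lowest, and UBR7 shares exon bases with another gene on its strand. The 4 measured of 6 other BIR genes had a median of -0.13, with 0 beyond 2-fold. XIAP, the caspase inhibitor, was at 1.78 times (1.23 to 2.61) and BIRC5, survivin, which acts in mitosis, at 0.904 times (0.748 to 1.096). BIRC2 was at 0.888 times (0.577 to 1.39) and BIRC3 at 0.741 times (0.451 to 1.24).

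Genes that work upstream of these ligases or bind to them had a lower median. Of 17 E1 and E2 enzymes and partners, all measured, 11 had a log2 ratio below 0 and 6 above, with a median of -0.38 that became 0.79 with scaling to the same RPKM sum. UBE2D1, an E2 enzyme used by many ligases, was at 1.56 RPKM in the IP (32 reads) and 6.30 in the input (61 reads), 4.04-fold lower in the IP (2.59 to 6.41). Its paralog UBE2D3 was at 0.497 times (0.439 to 0.564), just inside 2-fold with the pseudocount. UBE2L3, which charges HECT ligases, was at 0.535 times (0.445 to 0.644), and KCMF1, a partner of UBR4, at 0.619 times (0.466 to 0.823). UBA6, the E1 that serves BIRC6, was at 0.520 times (0.378 to 0.716), whereas UBA1, the main E1, was at 1.55 times (1.25 to 1.95). NEURL4, which binds HERC2, was highest at 2.31 times (1.44 to 3.90), with 103 IP and 21 input reads. NEURL4 shares exon bases with another gene on its strand. Also above 1 were USP7 at 1.33 times (1.14 to 1.56) and, with intervals that included 1, HTRA2, UBE2Z and UBE2D2. UBE2L3, KCMF1 and UBA6 were picked for naming after their values were seen. The merged exons of this list had a median of 5747 bases, against 17219 for the 8 ligases, though UBA6 (11408) and UBE2D3 (10044) were longer than NEDD4 (9122).

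**Figure D4:**
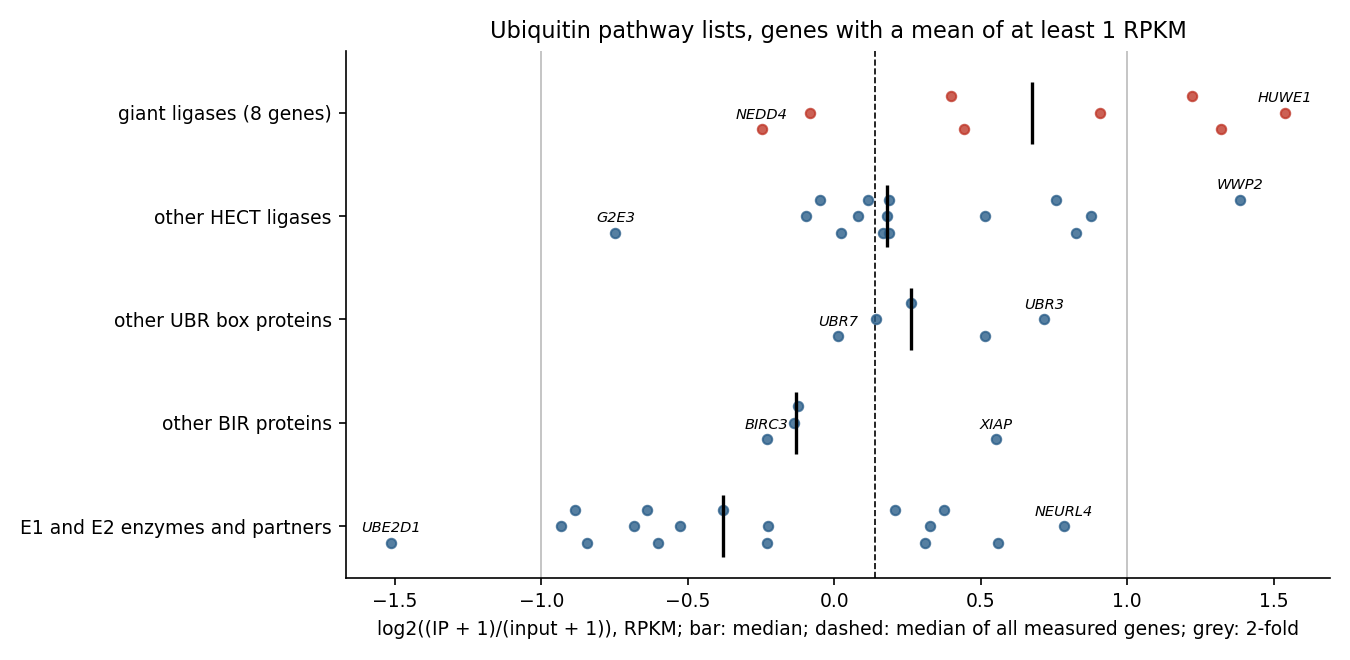
Log2((IP + 1)/(input + 1)) in RPKM of each measured gene (points) in the 8 ligases and in 4 related lists, with a bar at each median, a dashed line at the median of all measured genes (0.14) and grey lines at 2-fold. The medians run from 0.67 for the 8 ligases to -0.38 for the E1 and E2 list, and the lowest and highest gene of each list are named.

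Among the other 1145 protein-coding genes of at least 10000 merged exon bases, those with a log2 ratio nearest to the median of the 8 ligases over the 2 libraries were ZBTB10, SRGAP2, VPS13C, SPATS2L and KLC1, all at 0.67 or 0.68. They carried 2, 1, 2, 3 and 0 peaks.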

How the data were processed

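RNA of 1 IP and 1 input library of Huh-7 cells was analysed, grouped by title. The submitters' processing notes name Trimmomatic and STAR 2.5.3a, and the labels' protocols a stranded kit. No source used here names the counter, annotation, peak caller or build. The gene values are RPKM deposited by the authors under a header with no unit. Value times length gave the same sum in both columns, and whole reads were recovered for all values within 0.01 of a read. The deposited length is the union of listed exons. Peaks carry, per the file headers, a fold (ratio), a p-value with its false discovery rate, and a score, which was not used. The series has 1 IP and 1 input library to call peaks from.

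The log2 ratio used a pseudocount of 1 RPKM and was taken over genes averaging 1 RPKM or more. Ratios without a pseudocount have Clopper-Pearson based 95% intervals of the recovered reads, which cover counting error only. Each peak went to the gene on its strand with which it shared most exonic bases (at least 1) and was located by its centre along the merged exons, and bases in peaks include every exon base within the span of a peak. Ties went to the gene first by name, which is AL137127.1 before UBR4 and DYNLRB1 before ITCH. RefSeq (GRCh38.p14) symbols gave RNA classes for 19412 genes and left 6144 without one. The table had 0 columns of other samples. The recovery of reads, the intervals and the placement of peaks were tested on simulated data. No genome was used, so motifs in peaks were not analysed here.

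The 8 genes and the lists were chosen with earlier results of these data known. Named are all 8 genes, in each list the 2 highest and 2 lowest measured genes and those beyond 2-fold, the 5 long genes nearest to the median, and per gene the peaks with the highest fold and smallest p. Some items that this rule names are not reported here. UBE2L3, KCMF1, UBA6, USP7, HTRA2, UBE2Z, UBE2D2, RN7SL1 and RN7SL2 were also named and were picked after their values were seen. Alternatives were other scalings, pseudocounts, filters and peak thresholds. Intervals on 0.5 of the reads, joined peaks, densities per shared exon base and the median without HUWE1 were added after seeing the data. Software was scipy 1.17.1, pandas 2.3.3 and numpy 2.4.6 under Python 3.11.15, with matplotlib 3.10.9 for plots.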

Additional observations from a re-analysis of the deposited data

How the results depend on the processing

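With scaling to reads in protein-coding genes, the median of the 8 ligases was 0.40 and 2 of them were at least 2-fold higher. The medians were -0.087 for other HECT ligases, -0.063 for other UBR box genes, -0.46 for other BIR genes and -0.75 for the E1 and E2 list, beside -0.17 for all genes, with 887 genes higher and 2134 lower. After centring, the BIR median was -0.27. With scaling to the same RPKM sum, the median of the 8 ligases was 1.85 and 7 of them were at least 2-fold higher. The medians of the lists were then 1.21, 1.41, 0.98 and 0.79 in the order above, beside 1.24 for all genes, with 8693 higher and 454 lower. A mean of at least 5 RPKM left 816 higher and 545 lower, and intervals wholly beyond 2-fold 571 and 340. The 8 ligases held 10 peaks at a false discovery rate of at most 0.01 and 26 at a fold of at least 3. Without HUWE1 the median of the ligases was 0.44. Over the alternatives run, no ligase became 2-fold lower. For the HERC2 pseudogenes no alternative gave a median to compare, since none was measured in the first place. No paired analysis was possible because each group has 1 library. The input depth limits HERC1, BIRC6 and NEDD4 most, with 98, 113 and 72 reads. On 0.5 of the reads their intervals were 1.68 to 3.19, 1.12 to 2.08 and 0.512 to 1.22. The causes were not tested.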
